A study of Mus musculus with 7 samples.

Results

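The 39 genes described here encode WNT ligands, their receptors, secreted inhibitors, intracellular transducers and canonical targets. They were chosen by symbol from the 23284 gene symbols of the count files, and all 39 had a row. RNA was measured in the atrioventricular canal, the stretch that joins the early atrium to the early ventricle and gives rise to the cushions of the valves. The embryos were of the outbred NMRI background, at 18 to 23 somites, a stage that the labels put at embryonic day 9.0 or slightly later and the titles at day 9.5. Hand2 d/d (null-mutant) embryos, in which Cre removed the whole coding part of Hand2 in the germline, gave 4 libraries, and wild-type embryos gave 3, since 1 of 4 wild-type pools was not sequenced for its RNA quality. Each library came from 4 pooled canals with somite stages and sex ratios matched between genotypes. The mutant therefore lacked HAND2, a basic helix-loop-helix transcription factor, in every cell of the embryo and not only in the heart.

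WNT proteins are secreted lipid-modified ligands that bind frizzled (FZD) receptors together with the co-receptors LRP5 and LRP6. In the canonical branch this stops the destruction complex, which contains APC and AXIN proteins, from degrading beta-catenin, and beta-catenin then acts with TCF and LEF factors on targets such as Axin2. SFRP proteins and WIF1 bind the ligands, DKK1 and DKK2 block the co-receptors, and R-spondins raise the amount of receptor at the cell surface through LGR receptors. In the atrioventricular canal, canonical WNT signalling is known to take part in cushion formation, in which endocardial cells turn into mesenchyme.

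Of the 39 genes, 37 passed the filter on low counts and 5 of them passed the edgeR test, 3 higher and 2 lower in Hand2 null canals. Those higher were the receptors Fzd1 and Fzd4 and the DKK family gene Dkk3. Those lower were the ligand Wnt4 and the secreted inhibitor Sfrp5. Over all 14290 genes tested, 6.24% were called, 4.11% higher and 2.13% lower. At an unadjusted p under 0.05, 6 of the 37 WNT genes were higher and 4 lower, against 24.4% of all genes tested, 13.5% higher and 10.9% lower. DESeq2 called 5 WNT genes higher and 3 lower, against 12.4% of the 14169 genes to which it gave an adjusted p, 7.01% higher and 5.42% lower. limma-voom called 3 higher and 2 lower, against 5.97% of all genes tested, 3.84% higher and 2.13% lower. The median log2 fold change was -0.06 over the 37 WNT genes, 17 of which had positive and 20 negative values, and 0.02 over all genes tested.

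Upstream DNA was available for 26 of the 39 genes in RefSeq promoters of build GRCm38.p6, among them 4 of the 5 genes called, Dkk3 being the other. It is shown for these 4 because the compared embryos lack a factor that binds E-boxes. Each stretch starts 250 bases before the RefSeq start and ends before the first annotated exon. The reads were counted on mm9, so these GRCm38.p6 positions do not apply to the counts. Capitals mark the E-box CANNTG, which reads alike on both strands, and the TCF/LEF core CTTTGA with its reverse complement TCAAAG. No match of one motif overlapped a match of the other.
Wnt4, chr4:137277385-137277488, plus strand: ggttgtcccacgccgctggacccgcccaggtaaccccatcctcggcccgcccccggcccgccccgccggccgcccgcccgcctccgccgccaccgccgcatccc
Fzd1, chr5:4758217-4758466, minus strand: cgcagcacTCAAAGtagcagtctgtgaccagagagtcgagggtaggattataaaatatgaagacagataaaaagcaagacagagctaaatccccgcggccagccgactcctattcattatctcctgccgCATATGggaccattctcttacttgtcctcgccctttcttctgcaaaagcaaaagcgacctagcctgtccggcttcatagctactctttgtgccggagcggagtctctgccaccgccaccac
Fzd4, chr7:89404116-89404354, plus strand: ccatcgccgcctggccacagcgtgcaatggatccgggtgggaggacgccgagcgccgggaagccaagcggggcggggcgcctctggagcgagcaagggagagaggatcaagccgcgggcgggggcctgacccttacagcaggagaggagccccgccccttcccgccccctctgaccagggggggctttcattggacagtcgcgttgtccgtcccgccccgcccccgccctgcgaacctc
Sfrp5, chr19:42202253-42202502, minus strand: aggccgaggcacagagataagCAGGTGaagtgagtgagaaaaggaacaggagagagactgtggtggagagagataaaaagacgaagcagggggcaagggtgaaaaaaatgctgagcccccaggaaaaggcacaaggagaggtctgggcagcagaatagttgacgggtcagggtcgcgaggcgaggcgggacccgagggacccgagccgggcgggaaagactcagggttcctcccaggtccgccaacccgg
The Fzd1 stretch held 1 E-box, CATATG, and 1 TCF/LEF core, TCAAAG. The Sfrp5 stretch held 1 E-box, CAGGTG, and neither the Wnt4 nor the Fzd4 stretch held either motif. Among 32851 RefSeq promoters, 66.2% held an E-box and 13.8% a TCF/LEF core in windows of 250 bases. In windows of 104 bases, the length shown for Wnt4, these shares were 37.3% and 6.51%, and in windows of 239 bases, that shown for Fzd4, 64.8% and 13.4%. These matches describe letters only.

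Reads in genes numbered 28667561 to 38938029 per null library and 27905601 to 44860753 per wild-type library. A count of 3 reads was taken as the floor and equalled 0.0669 to 0.108 CPM, the count per 1000000 reads in genes. This floor covers counting error only, since reads after PCR without molecular identifiers are not independent molecules. Hand2 had 7, 26, 10 and 14 reads in null replicates 1 to 4, against 2123, 1224 and 1194 in wild-type replicates 2 to 4, so every library matched its label (log2 fold change -6.74, SE 0.301, edgeR adjusted p = 5.72e-07). The largest share of reads outside genes was that of null replicate 2 (14.21%), and wild-type replicate 4 the highest summed level of 5 blood markers (22038 CPM, against 5602 to 14510 CPM in null and 9329 and 12963 CPM in the other wild-type libraries). The labels call the libraries replicates of a genotype from separate pools, so p-values measure the spread between pools.

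**Figure D1:**
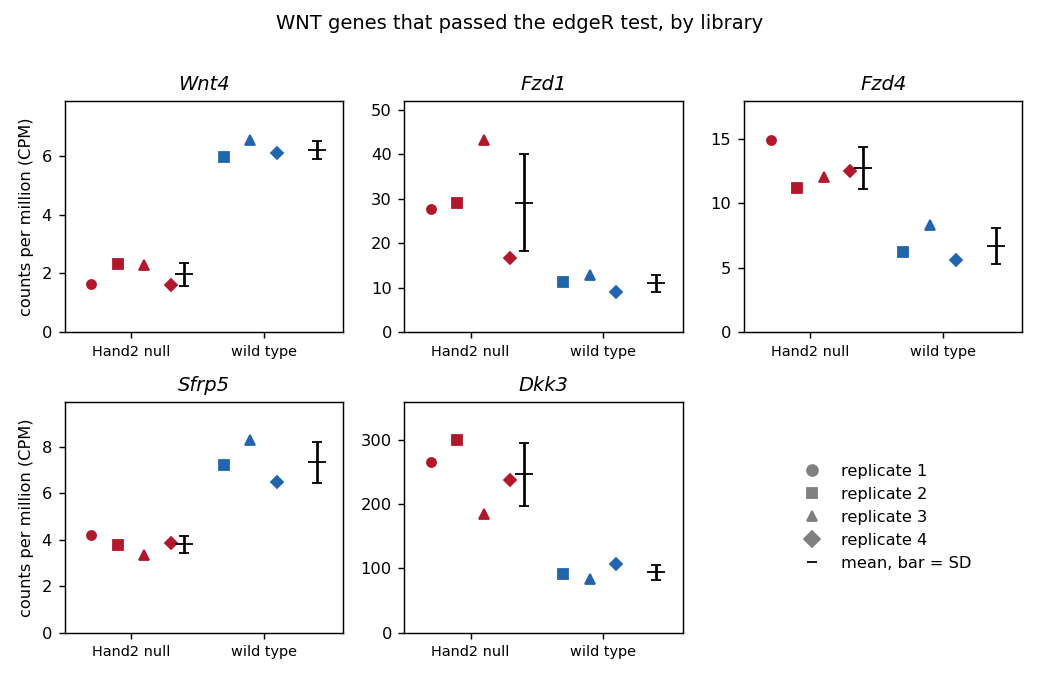
CPM of the 5 WNT genes that passed the edgeR test, in 4 Hand2 null (red) and 3 wild-type (blue) libraries, with the mean and SD at the right of each group and the replicate number as the marker shape. No null library overlaps a wild-type library in any of the 5 panels.

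Among the 7 ligands, edgeR called Wnt4 lower in null canals and none higher. Wnt4 lies on chromosome 4 and encodes a ligand best known from kidney and gonad development. It measured 1.63, 2.31, 2.30 and 1.62 CPM in null replicates 1 to 4, against 5.97, 6.54 and 6.09 CPM in wild-type replicates 2 to 4. The groups were far apart relative to the spread within each. The mean was 1.97 ± 0.394 CPM in null and 6.20 ± 0.297 CPM in wild type (SD, n = 4 and 3), which is -1.68 as a log2 fold change (SE 0.24, adjusted p = 0.00192 by edgeR), or 3.20-fold lower. Wnt4 was called with any 1 library left out, at log2 fold changes of -1.78 to -1.60. As in any bulk sample, fewer cells of a type and less RNA per cell cannot be told apart here.

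Wnt2, a ligand of cardiac mesoderm and lung, was the most abundant ligand per length, and its null libraries all lay above its wild-type libraries without passing the test. It measured 151, 191, 152 and 184 CPM in null replicates 1 to 4, against 117, 93.2 and 144 CPM in wild-type replicates 2 to 4. The gap between the lowest null and the highest wild-type library was small relative to the spread among wild-type libraries. The log2 fold change was 0.51 (SE 0.155, 95% interval 0.17 to 0.84, edgeR adjusted p = 0.0742). The gene was called without null replicate 3 (0.54, adjusted p = 0.0499) or wild-type replicate 4 (0.66, adjusted p = 0.0446), and by DESeq2 (0.49, adjusted p = 0.0351). Its adjusted p ran from 0.0351 to 0.317 over all alternatives. Per length, Wnt2 stood at 75.2 ± 9.24 RPKM, CPM divided by exon length in kilobases, in null and 52.3 ± 11.2 RPKM in wild type. It made up 89.2 ± 0.873% of the summed RPKM of the 7 ligands in null and 81.7 ± 4.70% in wild type, while Wnt4 made up 0.562 ± 0.124% and 2.38 ± 0.487% (SD, n = 4 and 3).

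The other ligands did not pass the test. Wnt5b, a ligand of the non-canonical branch, showed no overlap, at 1.02, 1.49, 1.43 and 1.23 CPM in null replicates 1 to 4, against 1.63, 1.76 and 2.01 CPM in wild-type replicates 2 to 4. It had only 38 to 49 reads per null library, against 51 to 73 per wild-type library. All 4 null libraries were lower, but its log2 fold change of -0.50 had a 95% interval of -1.18 to 0.18 (edgeR adjusted p = 0.354). Wnt5a, the other main non-canonical ligand, averaged 31.8 ± 6.97 CPM in null and 41.3 ± 11.8 CPM in wild type, and wild-type replicate 4 (27.7 CPM) lay within the null range. Wnt11, a non-canonical ligand of the outflow tract and myocardium, averaged 15.1 ± 3.16 CPM in null and 15.3 ± 0.960 CPM in wild type. Wnt2b and Wnt9a were sparse, with 15 to 37 and 8 to 34 reads per null library, against 11 to 23 and 4 to 10 reads per wild-type library, and their intervals reached from -0.53 to 1.78 and from -0.17 to 2.72 on the log2 scale.

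**Figure D2:**
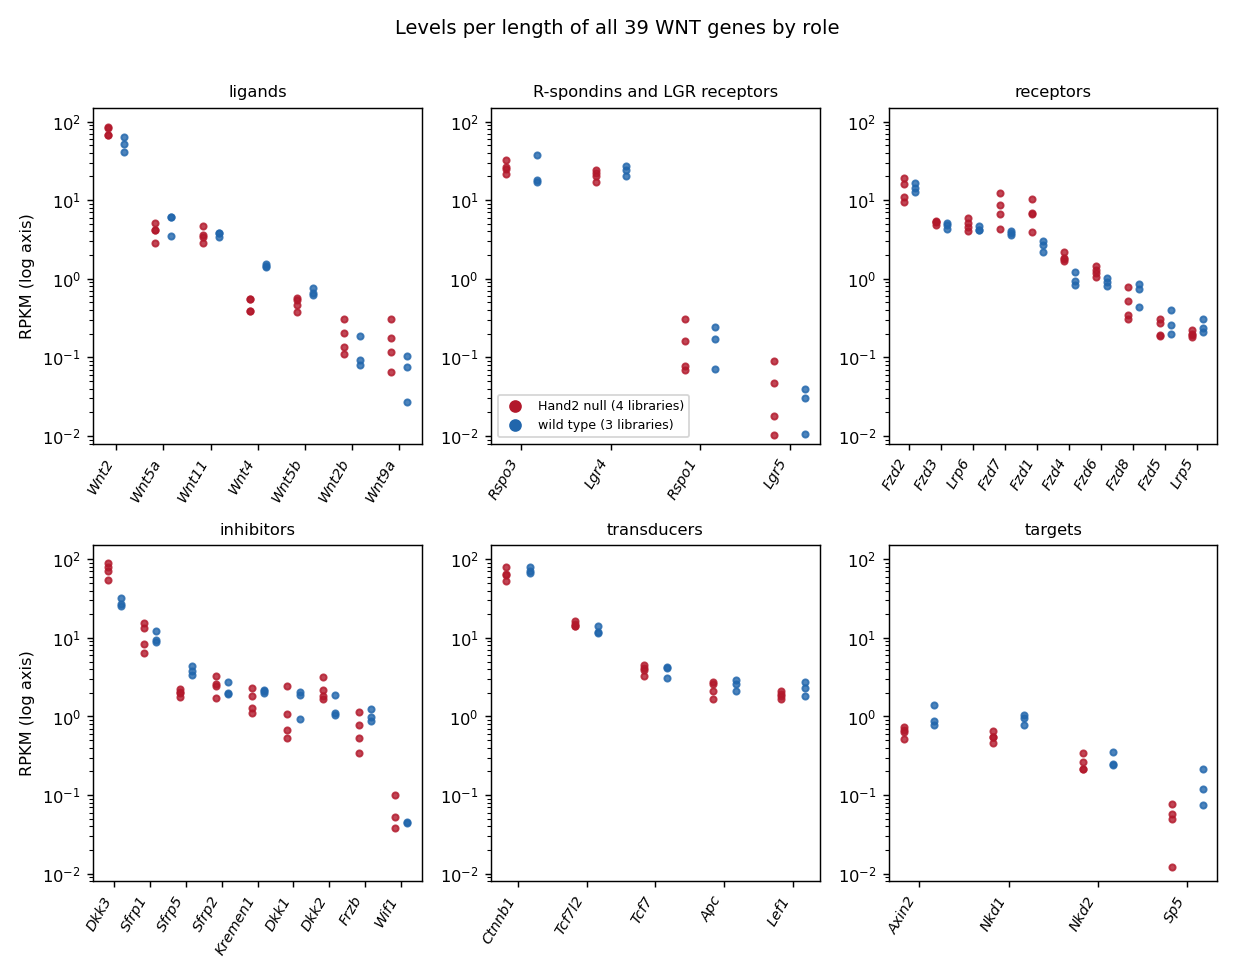
RPKM of all 39 WNT genes on a log axis, 1 panel per role and genes ordered by their wild-type mean, with 4 Hand2 null libraries in red at the left of each gene and 3 wild-type libraries in blue at the right. Libraries with 0 reads (Wif1 in null replicate 3 and wild-type replicate 3) are not drawn. Wnt2, Dkk3 and Ctnnb1 lie highest in their panels, and Lgr5, Wif1 and Sp5 lowest.

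R-spondins and their LGR receptors gave no call among 4 genes by edgeR, by DESeq2 or by limma-voom, and none at an unadjusted p under 0.05. Rspo3, the R-spondin of early vascular and cardiac development, measured 76.7, 82.1, 100 and 65.7 CPM in null replicates 1 to 4, against 52.1, 56.5 and 115 CPM in wild-type replicates 2 to 4. Wild-type replicate 4 was above every null library and the other wild-type libraries were below them. Lgr4, the abundant R-spondin receptor, averaged 122 ± 17.9 CPM in null and 140 ± 19.1 CPM in wild type. In wild type, Rspo3 and Lgr4 overlapped in level per length (24.1 and 23.9 RPKM). Rspo1 and Lgr5 had 5 to 23 and 4 to 36 reads per null library, against 4 to 15 and 3 to 18 reads per wild-type library.

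Among the 10 receptors, edgeR called Fzd1 and Fzd4 higher in null canals and none lower. Of the 10, 4 had null libraries wholly above wild-type ones and none wholly below. Over all genes tested, 21.8% did not overlap between genotypes, 11.6% higher and 10.3% lower in null. Among the 37 WNT genes, 6 lay wholly higher and 5 wholly lower.

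Fzd1, on chromosome 5, belongs with Fzd2 and Fzd7 to one subfamily of frizzled receptors. It measured 27.6, 29.0, 43.2 and 16.7 CPM in null replicates 1 to 4, against 11.2, 12.8 and 9.10 CPM in wild-type replicates 2 to 4. Null replicate 3 was highest and null replicate 4 nearest to wild type. The mean was 29.1 ± 10.9 CPM in null and 11 ± 1.87 CPM in wild type (SD, n = 4 and 3), which is 1.38 as a log2 fold change (SE 0.284, adjusted p = 0.0154 by edgeR), or 2.61-fold. The gene was not called without wild-type replicate 2 (1.39, adjusted p = 0.0804), or without both null replicate 2 and wild-type replicate 4. Over all alternatives its adjusted p ran from 5.17e-05 to 0.1.

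Fzd7 resembled Fzd1 in size but missed the threshold. It measured 29.9, 38.9, 56.3 and 19.7 CPM in null replicates 1 to 4, against 17.2, 16.3 and 18.3 CPM in wild-type replicates 2 to 4. Null replicate 4 was only just above wild-type replicate 4. The log2 fold change was 1.05 (SE 0.288, 95% interval 0.42 to 1.68, edgeR adjusted p = 0.0517). The gene was called without null replicate 3 (0.74, adjusted p = 0.0447) or null replicate 4 (1.25, adjusted p = 0.00585). It was also called by edgeR without composition scaling (adjusted p = 0.0496), without the low-count filter (0.0301) or with a stricter one (0.0468), and by DESeq2 (0.00499). Its adjusted p ran from 0.00499 to 0.187 over all alternatives.

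Fzd2, the most abundant receptor per length in wild type, differed between genotypes by less than the spread. It measured 40.7, 59.2, 70.1 and 34.2 CPM in null replicates 1 to 4, against 52.0, 59.8 and 46.1 CPM in wild-type replicates 2 to 4. Null libraries lay both above and below all wild-type libraries (log2 fold change -0.06, 95% interval -0.56 to 0.43). Fzd2 made up 36.4 ± 2.88% of the summed RPKM of Fzd1 to Fzd8 in null and 50.5 ± 2.75% in wild type. Fzd1 made up 17.9 ± 2.48% in null and 9.23 ± 0.878% in wild type, and Fzd7 20.4 ± 3.38% and 13.5 ± 1.85% (SD, n = 4 and 3). The shares of Fzd1, Fzd2, Fzd7 and Fzd8 did not overlap between genotypes. The sum itself was 37.9 ± 10.3 RPKM in null and 28.4 ± 2.17 RPKM in wild type, and each share depends on the levels of the other receptors.

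**Figure D3:**
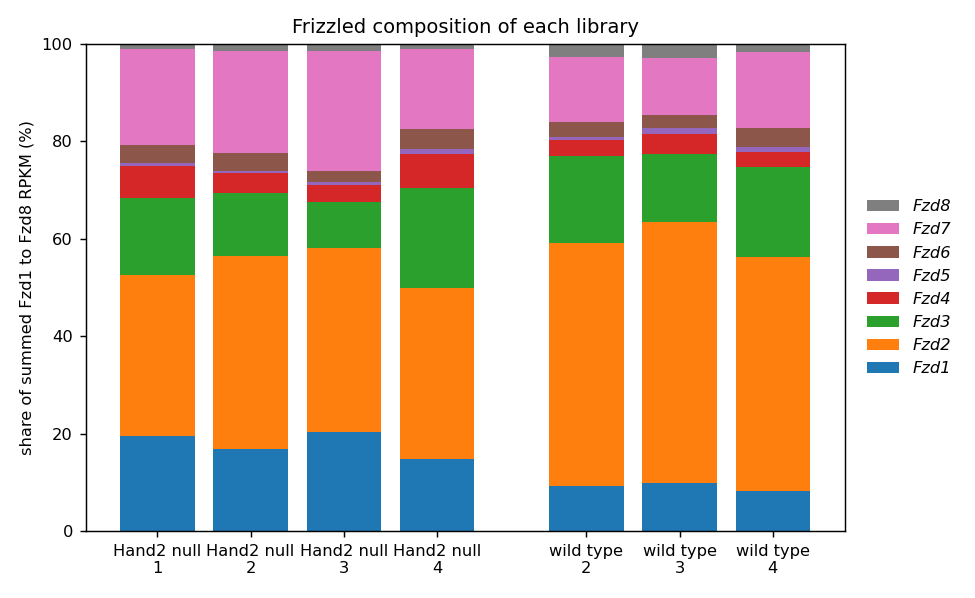
Share of the summed RPKM of Fzd1 to Fzd8 held by each receptor, as stacked bars for 4 Hand2 null libraries at the left and 3 wild-type libraries at the right. Fzd1 takes between 14.9% and 20.3% in null libraries, against 8.29% to 10% in wild-type libraries, and Fzd2 between 33.1% and 39.6% in null libraries, against 48.1% to 53.5% in wild-type libraries.

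Fzd4, on chromosome 7, is a receptor of vascular endothelium that also binds norrin. It measured 14.9, 11.2, 12.0 and 12.5 CPM in null replicates 1 to 4, against 6.22, 8.27 and 5.59 CPM in wild-type replicates 2 to 4. Null replicate 1 was highest, and the groups were separated. The mean was 12.7 ± 1.62 CPM in null and 6.69 ± 1.40 CPM in wild type (SD, n = 4 and 3), which is 0.90 as a log2 fold change (SE 0.209, adjusted p = 0.0265 by edgeR). The call was lost without null replicate 1 (0.78, adjusted p = 0.0878), wild-type replicate 2 (0.85, adjusted p = 0.141) or wild-type replicate 4 (0.78, adjusted p = 0.0772). It was also lost without both null replicate 2 and wild-type replicate 4. The adjusted p of Fzd4 ran from 0.00177 to 0.141 over all alternatives. The summed level of 7 endothelial and endocardial markers did not overlap between genotypes either. It was 392 to 447 CPM in null and 274 to 293 CPM in wild type, and Pecam1, Tie1 and Kdr were called higher (log2 fold changes 0.74, 1.1 and 0.94, the Pecam1 call being lost without null replicate 1 or wild-type replicate 2 or 3). Of the 4 not called, Cdh5 had no overlap (0.51), while Emcn, Tek and the endocardial gene Nfatc1 overlapped (0.34, 0.08 and -0.09). The part of these markers in the Fzd4 result was not tested.

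The remaining receptors did not pass the test. Fzd6, a receptor of the planar polarity branch, measured 6.27, 7.09, 5.65 and 5.09 CPM in null replicates 1 to 4, against 4.32, 3.87 and 4.98 CPM in wild-type replicates 2 to 4. The groups touched without overlapping (log2 fold change 0.44, 95% interval -0.02 to 0.90, edgeR adjusted p = 0.228). Fzd3, of the same branch, averaged 66.6 ± 3.67 CPM in null and 60.1 ± 5.29 CPM in wild type. The co-receptor Lrp6 averaged 66.7 ± 10.7 CPM in null and 58.9 ± 4.19 CPM in wild type, and its relative Lrp5 1.94 ± 0.161 CPM in null and 2.45 ± 0.468 CPM in wild type. Fzd5 and Fzd8 averaged 1.65 ± 0.421 and 2.91 ± 1.30 CPM in null, against 1.98 ± 0.712 and 4.05 ± 1.29 CPM in wild type.

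Among the secreted inhibitors and Kremen1, Dkk3 rose and Sfrp5 fell in null canals. Dkk3, on chromosome 7, encodes a divergent DKK family protein that, unlike DKK1, is not an established blocker of LRP5 and LRP6. It measured 265, 299, 184 and 237 CPM in null replicates 1 to 4, against 90.8, 84.3 and 107 CPM in wild-type replicates 2 to 4. The lowest null library was well above the highest wild-type one. The mean was 246 ± 48.6 CPM in null and 94.0 ± 11.6 CPM in wild type (SD, n = 4 and 3), which is 1.37 as a log2 fold change (SE 0.166, adjusted p = 0.000684 by edgeR), or 2.58-fold. Dkk3 was called with any 1 library left out (1.29 to 1.47). At 73.3 ± 14.5 RPKM in null and 28.0 ± 3.46 RPKM in wild type, it was the most abundant inhibitor per length and made up 95.3 ± 2.16% of the summed RPKM of Dkk1, Dkk2 and Dkk3 in null and 90.6 ± 2.12% in wild type.

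Sfrp5, on chromosome 19, encodes a secreted frizzled-related protein that binds WNT ligands and is known from progenitors of the cardiac inflow. It measured 4.20, 3.78, 3.35 and 3.85 CPM in null replicates 1 to 4, against 7.20, 8.27 and 6.49 CPM in wild-type replicates 2 to 4. All null libraries were close together and below wild type. The mean was 3.80 ± 0.351 CPM in null and 7.32 ± 0.896 CPM in wild type (SD, n = 4 and 3), which is -0.96 as a log2 fold change (SE 0.206, adjusted p = 0.0182 by edgeR). The call was lost without wild-type replicate 2 (-0.98, adjusted p = 0.0827) or wild-type replicate 3 (-0.86, adjusted p = 0.104). It was also lost without both null replicate 2 and wild-type replicate 4. The adjusted p of Sfrp5 ran from 0.000382 to 0.104 over all alternatives. Sfrp5 made up 12.9 ± 3.30% of the summed RPKM of Sfrp1, Sfrp2, Sfrp5 and Frzb in null and 22.4 ± 3.13% in wild type.

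The other inhibitors did not pass the test. Sfrp1, the most abundant SFRP gene, ranged from 27.8 to 67.7 CPM in null and from 38.3 to 53.0 CPM in wild type. Dkk2, an LRP6-binding family member, averaged 8.17 ± 2.59 CPM in null and 4.98 ± 1.71 CPM in wild-type canals (log2 fold change 0.70, 95% interval 0.07 to 1.33, edgeR adjusted p = 0.16). Dkk1, the canonical LRP6 blocker, measured 1.63, 1.31, 2.65 and 5.98 CPM in null replicates 1 to 4, against 2.25, 4.53 and 4.91 CPM in wild-type replicates 2 to 4. Null replicate 4 was the highest of all 7 libraries and null replicates 1 and 2 the lowest. Sfrp2 and Frzb, both SFRP family genes, averaged 5.37 ± 1.34 and 2.27 ± 1.12 CPM in null, against 4.79 ± 1.04 and 3.35 ± 0.652 CPM in wild type. Kremen1, a transmembrane DKK receptor, averaged 12.5 ± 4.14 CPM in null and 16.1 ± 0.646 CPM in wild type. Wif1, which binds WNT ligands, had 9, 3, 0 and 5 reads in null replicates 1 to 4, against 5, 0 and 3 reads in wild-type replicates 2 to 4, and was not tested.

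None of the 5 transducers was called by edgeR, DESeq2 or limma-voom, and none had an unadjusted p under 0.05. Their log2 fold changes ran from -0.30 to 0.24. Ctnnb1, which encodes beta-catenin, measured 326, 339, 410 and 272 CPM in null replicates 1 to 4, against 368, 414 and 350 CPM in wild-type replicates 2 to 4. The groups overlapped, and the 95% interval of the log2 fold change was -0.53 to 0.17. This interval covers the RNA, and the protein, whose stability carries the signal, was not measured. Apc, of the destruction complex, averaged 36.7 ± 8.12 CPM in null and 41.0 ± 6.81 CPM in wild type. The DNA-binding partners Tcf7l2, Lef1 and Tcf7 averaged 131 ± 8.84, 16.5 ± 1.69 and 10.3 ± 1.39 CPM in null, against 109 ± 13.1, 20.1 ± 3.97 and 10.1 ± 1.74 CPM in wild type.

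None of the 3 tested canonical targets was called by edgeR or limma-voom. At an unadjusted p under 0.05, 2 were lower, against 10.9% of all genes tested. DESeq2 called 1, Nkd1, lower, against 5.42% of the genes to which it gave an adjusted p. All 3 had negative log2 fold changes. Other genes known as targets of the branch, named here after their values were seen, included Myc and Ccnd1. Myc was at 37.7 CPM in null and 24.5 CPM in wild type (0.61, 95% interval 0.23 to 0.98, edgeR adjusted p = 0.0572). Its null libraries (35.2 to 41.7 CPM) lay wholly above wild type (18.5 to 31.2 CPM). Ccnd1 was at 53.6 CPM in null and 70.1 CPM in wild type (-0.40, 95% interval -0.72 to -0.09, edgeR adjusted p = 0.116). Its null libraries (46.0 to 60.1 CPM) lay wholly below wild type (64.8 to 75.5 CPM). Of the 26 tested genes of the listed beta-catenin branch, Myc and Ccnd1 among them, DESeq2 and limma-voom each called 1 higher and none lower. Further known targets, listed under other roles and also named afterwards, went both ways, and none was called by edgeR. Rnf43 (1.16), Lgr5 (0.58) and Tcf7 (0.01) were positive, and Znrf3 (-0.01), Lef1 (-0.30) and Dkk1 (-0.44) negative. Rnf43 was sparse and did not overlap, with 10 to 15 reads per null and 3 to 7 per wild-type library. Axin2, a feedback inhibitor widely read as a gauge of canonical signalling, measured 3.45, 4.05, 3.66 and 2.83 CPM in null replicates 1 to 4, against 4.86, 4.32 and 7.67 CPM in wild-type replicates 2 to 4. Every null library was below every wild-type one, and wild-type replicate 4 stood above the rest. The log2 fold change was -0.70 (SE 0.255, 95% interval -1.25 to -0.14, edgeR adjusted p = 0.119), and -0.43 without wild-type replicate 4. Nkd1, which acts on dishevelled as a feedback inhibitor, measured 2.09, 2.98, 2.51 and 2.52 CPM in null replicates 1 to 4, against 4.37, 3.60 and 4.73 CPM in wild-type replicates 2 to 4. Its groups did not overlap either, with a log2 fold change of -0.77 (SE 0.239, 95% interval -1.29 to -0.25, edgeR adjusted p = 0.0772). Over all genes tested, 10.3% lay wholly lower in null libraries.

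Nkd2, the relative of Nkd1, averaged 1.25 ± 0.285 CPM in null and 1.37 ± 0.314 CPM in wild type. Sp5, a direct beta-catenin target in early embryos, had 6, 4, 3 and 1 reads in null replicates 1 to 4, against 7, 13 and 7 reads in wild-type replicates 2 to 4, and was not tested. All 4 null counts were under all 3 wild-type counts, but in CPM null replicate 1 (0.161 CPM) was above wild-type replicate 2 (0.156 CPM). The summed level of 6 cushion mesenchyme markers was also lower in every null library. It was 79.2 to 105 CPM in null and 121 to 273 CPM in wild type, with wild-type replicate 4 highest, and 4 of 6 were called lower, Twist1, Sox9, Msx1 and Postn (log2 fold changes -2.10, -1.27, -1.46 and -2.04). Of the other markers, Pdgfra had a positive value (0.44, 95% interval 0.02 to 0.86, edgeR adjusted p = 0.189) and Prrx1 was at -0.07. Twist1 was called under all alternatives. Sox9 and Postn were not called without null replicate 1 (edgeR adjusted p = 0.0538 and 0.0541), and Msx1 was not called without composition scaling, with limma-voom, with the replicate block, or when any library but null replicate 3 and wild-type replicate 3 was left out (adjusted p 0.0515 to 0.159). Without wild-type replicate 4 together with null replicate 2, Sox9, Postn and Msx1 stood at -0.70, -1.09 and -0.86 and were not called. The part of these markers in the values of Wnt4, Sfrp5, Axin2 and Nkd1 was not tested.

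**Figure D4:**
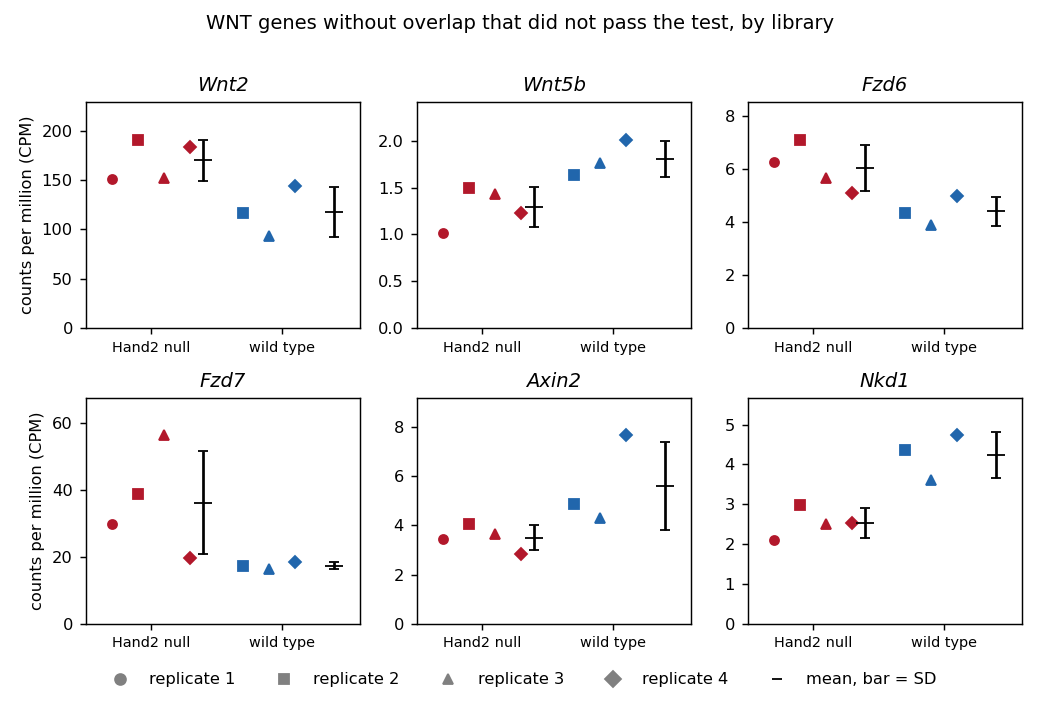
CPM of the 6 WNT genes whose libraries did not overlap between genotypes but which did not pass the edgeR test, in 4 Hand2 null (red) and 3 wild-type (blue) libraries, with mean and SD. Wnt2, Fzd6 and Fzd7 lie higher and Wnt5b, Axin2 and Nkd1 lower in null libraries.

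**Figure D5:**
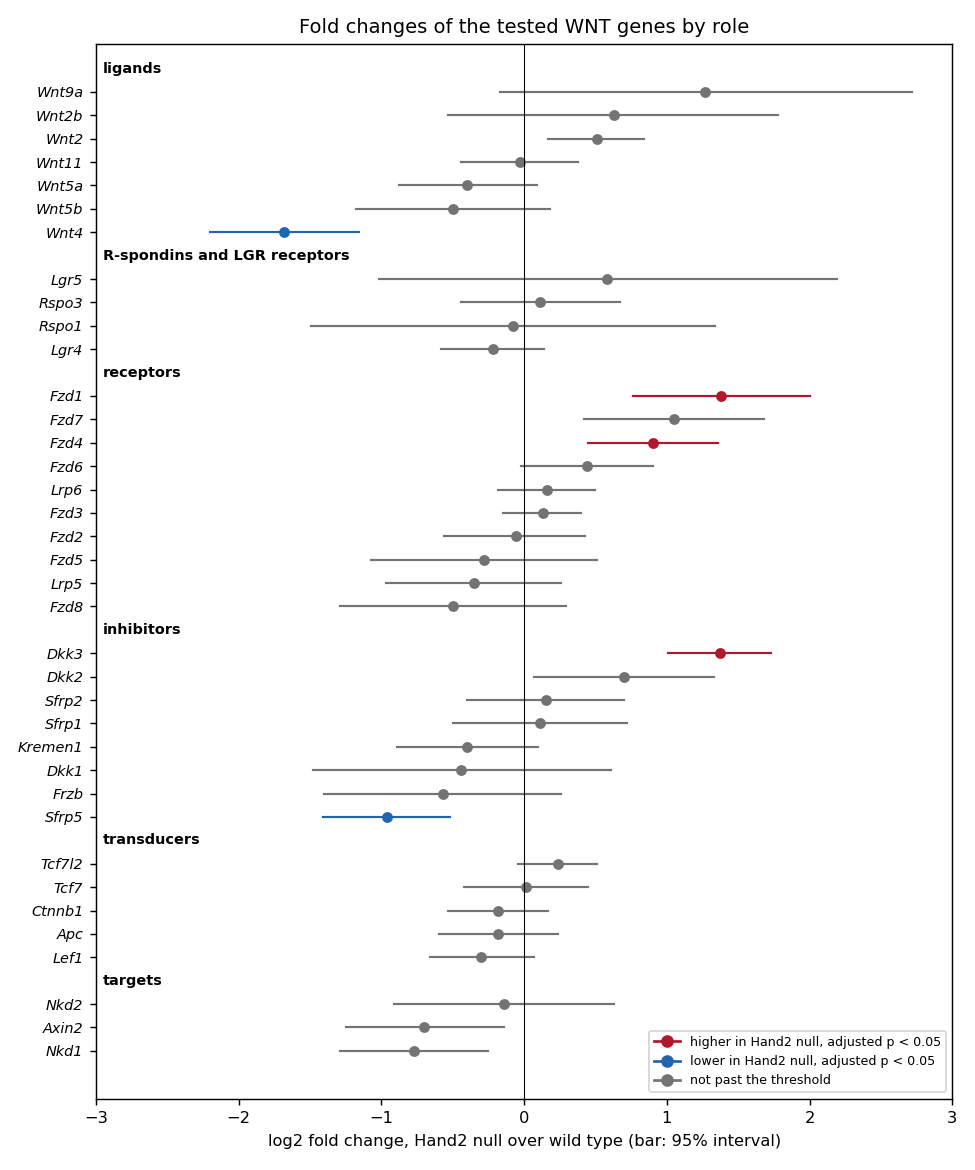
Log2 fold change of Hand2 null over wild type for the 37 tested WNT genes by role, with 95% intervals from the edgeR fit, coloured by call. Fzd1, Fzd4 and Dkk3 are called higher and Wnt4 and Sfrp5 lower, and the intervals of Fzd7, Wnt2, Dkk2, Axin2 and Nkd1 also leave out 0 although their adjusted p did not pass.

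Of the 72 other pathway genes listed by role, 56 were tested, 2 rose and none fell by edgeR, against 6.24% of all genes tested. At an unadjusted p under 0.05 there were 6 positive and 2 negative, against 24.4% of all genes tested. DESeq2 called 4 higher and none lower, against 7.01% higher and 5.42% lower of the genes to which it gave an adjusted p. limma-voom called 3 higher and none lower, against 3.84% and 2.13% of all genes tested. The median log2 fold change of the 56 genes was -0.01. Porcn, whose product attaches the lipid that WNT ligands need for secretion, measured 10.1, 10.7, 10.8 and 9.45 CPM in null replicates 1 to 4, against 5.02, 4.46 and 5.16 CPM in wild-type replicates 2 to 4. Both groups were tight and well separated (log2 fold change 1.06, SE 0.179, edgeR adjusted p = 0.00542), and the gene was called with any 1 library left out. Sost, which encodes sclerostin, a secreted ligand of LRP5 and LRP6 that blocks WNT signalling, measured 10.8, 8.68, 18.3 and 10.2 CPM in null replicates 1 to 4, against 3.05, 5.85 and 2.58 CPM in wild-type replicates 2 to 4. Null replicate 3 was highest (log2 fold change 1.64, SE 0.347, edgeR adjusted p = 0.0173), and the call was lost without wild-type replicate 2 (1.49, adjusted p = 0.102) or wild-type replicate 4 (1.42, adjusted p = 0.0512), its adjusted p running from 5.87e-05 to 0.102 over all alternatives. None of the 26 tested genes of the beta-catenin branch was called by edgeR (1 positive and 1 negative at an unadjusted p under 0.05, where all genes tested gave 24.4%). DESeq2 and limma-voom each called 1 of them higher, against the 7.01% and 3.84% above. Of the 10 tested planar polarity genes none was called by edgeR or limma-voom (1 positive and 1 negative at an unadjusted p under 0.05, against the same 24.4%). DESeq2 called 1 of them higher, against the same 7.01%.

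Dissected tissue may include neighbouring cells, whose markers were therefore summed, and their part in the WNT values was not tested. The canal myocardium markers were present, at a summed 167 to 217 CPM over 4 genes in null and 150 to 262 CPM in wild type. The sum of 4 second heart field and pericardial markers was 23.7 to 57.2 CPM in null and 10.8 to 21.2 CPM in wild type. Isl1 and Osr1 were called higher (log2 fold changes 1.77 and 2.65), but not without wild-type replicate 2 (1.70 and 2.48, edgeR adjusted p = 0.0804 and 0.0705). Fgf10 overlapped, at 7.91 CPM in null and 9.58 CPM in wild type (-0.30), and Tbx1, with 1 to 10 reads per null and 1 to 9 per wild-type library, was not tested. The 6 heart muscle markers overlapped in sum, at 15673 to 18839 CPM in null and 14852 to 17459 CPM in wild type. Among them, Myh7 was called higher (0.80), but missed the threshold without wild-type replicate 2 (adjusted p = 0.0614 by edgeR), replicate 3 (0.058) or both null replicate 2 and wild-type replicate 4 (0.0603). Nkx2-5 (0.32), Actc1 (0.12), Myh6 (0.08), Tnnt2 (-0.13) and Myl4 (-0.14) overlapped between genotypes and were not called. None of 5 proepicardial and epicardial markers was called by edgeR, DESeq2 or limma-voom (1 positive at an unadjusted p under 0.05), at a summed 62.4 to 78.8 CPM in null and 47.7 to 67.8 CPM in wild type. The 6 foregut endoderm markers summed to 1.1 to 8.60 CPM in null and 1.18 to 3.83 CPM in wild type. Neither Foxa1 (2 to 10 reads per null library) nor Shh (0 to 20, highest in null replicate 4) had a read in wild type. Foxa2, Epcam, Cdh1 and Sox2 had reads in every wild-type library and overlapped between genotypes. Of these, Foxa2 was not tested, and Epcam, Cdh1 and Sox2 were not called (log2 fold changes 0.17, 0.74 and 0.95). The 2 neural crest markers, of which Foxd3 was at or under 3 reads in all 7 libraries, stayed at or under 0.183 CPM.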

How the data were processed

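The deposited files hold counts, whole-number reads per gene symbol, made by the authors with TopHat2 2.0.13, HTSeq and SAMtools on mouse build mm9, per the submitters' processing notes. Which annotation and which HTSeq settings were used is not given in the sources used here. The last 5 rows of each file are the counter's summary and were left out. CPM were computed over gene rows, and RPKM from merged exon lengths of GENCODE M21 (GRCm38).

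Genotypes were compared in R 4.3.3 with edgeR 4.0.16 and its quasi-likelihood test (TMM, minimum count 10, genotype only, 7 libraries), with Benjamini-Hochberg adjustment over 14290 genes and a threshold of 0.05. SE is the size of the log2 fold change over the root of its F statistic. Scripts were tested on simulated data. Alternatives were other scalings, filters, DESeq2 1.42.0, limma-voom 3.58.1, a replicate block and left-out libraries. The members and lists were chosen with earlier results of these data known. Genes given by library are those called, those without overlap and the most abundant of each role. A read count of 3 was the floor.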

Additional observations from a re-analysis of the deposited data

How the results depend on the processing

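Of 585 refits of the 37 tested WNT genes, 532 kept direction and side of the threshold, 9 lost and 12 gained a call, and 32, over 10 genes never called, changed sign; causes were not tested. Dkk3 and Wnt4 were called throughout. The members called higher and lower numbered 3 and 2. They were 5 and 3 with DESeq2, 1 and 1 after leaving out both null replicate 2 and wild-type replicate 4, and 1 to 5 and 1 to 2 with 1 library left out (fewest without wild-type replicate 2, with 1 lower also without wild-type replicate 3, most without null replicate 3). The other pathway genes called higher and lower were 2 and 0, against 4 and 0 with DESeq2, 1 without both those libraries, and 1 to 4 and 0 to 1 with 1 left out. Over all genes, 587 and 305 were called, against 993 and 768 with DESeq2, 298 and 123 without both those libraries, and 210 to 946 and 46 to 652 with 1 left out.

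The replicate block over libraries numbered 2 to 4, which leaves out null replicate 1, gave 5 members higher, 4 other pathway genes higher and 578 genes lower. The edgeR fit of all 7 libraries gave 3, 2 and 305. Deviations of same-numbered libraries of the 2 genotypes correlated at -0.073, 0.257 and 0.166 for numbers 2, 3 and 4 over 14290 genes. Pairs of unlike number ran from -0.234 to 0.137. Libraries numbered 3 and 4 correlated best with their own number, and those numbered 2 did not. Whether same-numbered libraries share more than a number was not tested.

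Log2 fold changes near 0 changed sign. Tcf7 was -0.003 with RLE factors, -0.01 with upper-quartile scaling, -0.003 with DESeq2, -0.001 with limma-voom, -0.09 without both libraries and -0.04 with the block. Sfrp1 was -0.0007 with limma-voom and -0.14 with the block. Wnt11 and Rspo1 were 0.04 and 0.50 without both libraries and 0.03 and 0.06 with the block, and Dkk1 was 0.01 without both libraries. With 1 library left out, ranges were -0.19 to 0.05 for Wnt11, -0.41 to 0.27 for Rspo1, -0.10 to 0.55 for Rspo3, -0.28 to 0.08 for Fzd2, -0.49 to 0.06 for Fzd5, -0.12 to 0.30 for Sfrp1, -0.01 to 0.32 for Sfrp2, -0.13 to 0.11 for Tcf7 and -0.30 to 0.07 for Nkd2.

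For 9 members, 3.2% to 17.8% of exon bases are shared with another annotated gene, mostly on the other strand, and without strand information reads from that portion cannot be assigned by gene. None of the 5 called members shared any exon bases in this way. Of their transcript stretches of 50 bases, 4.33% for Wnt4 and 0.15% for Fzd4 also occur in transcripts of other genes, and none for Fzd1, Dkk3 and Sfrp5. Under about 50 reads per library, as for Wnt2b, Wnt9a, Rspo1, Lgr5, Sp5 and Wif1, and for Wnt5b in null libraries, precision was lowest.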

Other observations

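Among the 4 null libraries, several receptor genes kept the same order, lowest in replicate 4, then 1, then 2, and highest in replicate 3. Fzd1, Fzd2, Fzd7, Fzd8, Lrp6, Ctnnb1 and Rspo3 showed it, which is 7 of the 39 WNT genes (17.9%), against 8.91% of all 14290 genes tested. Fzd2 stood at 34.2, 40.7, 59.2 and 70.1 CPM and Lrp6 at 54.7, 62.7, 69.2 and 80 CPM in that order. The same order ran from the most to the fewest reads in genes (38938029, 37340143, 32846751 and 28667561). It was noticed after the values were seen, and its source was not tested.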
